A study of Mus musculus with 19 samples.

Results

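FDCPmix is a line of mouse blood progenitors that depends on interleukin-3 and keeps the ability to mature along several blood lineages. The data described here are the 4 two-colour arrays that compared FDCPmix cells 7 h after tamoxifen with treated cells at 0 h, chosen by their label for time and treatment from the 19 arrays of the series. The other arrays of the time course held cells at 3 h (4 arrays), 12 h (4 arrays) and 23 h (3 arrays) against the same kind of 0 h reference, and the 4 remaining arrays held treated cells with no stated time. Tamoxifen is a ligand of the oestrogen receptor. The labels do not say which protein it acts on in these cells, they carry the words ES cell line without explaining them, and both channels of every 7 h array held tamoxifen-treated cells. In replicates 1 and 2 the RNA of the 7 h cells was in Cy5 and in replicates 3 and 4 it was in Cy3. By the labels, dye and time were thus balanced on these 4 arrays. This balance does not hold without replicate 4, or for the 3 arrays of 23 h. Nothing in the labels says whether the replicates came from separate cultures, so p-values measure only the spread between arrays. Unless stated otherwise, the fits took that spread from the arrays of all times in the time course, not from the 7 h arrays alone.

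Cells that sense low oxygen stabilise the transcription factor HIF-1, which raises genes of glycolysis, glucose uptake and adaptation to low oxygen. In blood progenitors the same programme is also driven by cytokine signals such as interleukin-3, which acts through the kinase JAK2 and the factor STAT5. Neutrophil granule proteins are made in waves as progenitors mature along the granulocyte line, and heat shock proteins and chaperonins help other proteins to fold.

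Each value below is the deposited log ratio of a gene at 7 h over 0 h, centred on the median of its array and taken as log2. A negative value means a lower signal at 7 h if the ratio has the 7 h cells as its numerator. No source used here gives the base, the numerator or the normalization of the ratios, so fold sizes and directions rest on that reading. A ratio carries no level of expression, so the presence of the line's defining markers could not be checked, and in bulk RNA fewer cells of a type and less RNA per cell cannot be told apart.

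Replicate 4 stood apart from the other 3 arrays in the sign of its extreme value. Every array held one extreme value, repeated on several spots. On all arrays but this one it was positive where the array's own RNA was in Cy5 and negative where it was in Cy3. At 7 h it was 16.3 on 14 spots in replicate 1, 16.4 on 10 spots in replicate 2 and -16.5 on 14 spots in replicate 3. In replicate 4 it was 16.3 on 15 spots, with the sign of a Cy5 array against a Cy3 label. Across features, replicates 1 and 2 correlated with each other at a Spearman rho of 0.329, whereas replicates 3 and 4 correlated at -0.235. Replicate 3 correlated with replicates 1 and 2 at -0.0788 and -0.0293, and replicate 4 did so at 0.0642 and 0.0447. Across all features replicates 1 to 3 were thus not one agreeing group. Replicate 3 correlated at 0.266 with the mean of the Cy3 arrays of the other times and replicate 4 at -0.258. These correlations describe the arrays, which share dye and reference. The genes called without replicate 4 and the lists that hold them are therefore given with the 4 arrays as deposited, without replicate 4 and with its sign turned, and other genes by their values on the 4 arrays.

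With all 4 arrays as deposited, no feature passed limma's moderated test at an adjusted p under 0.05: 0 of 16024 features were called at 7 h versus 0 h, a share of 0%, and 1138 had an unadjusted p under 0.05. Without replicate 4, 13 of 16035 features were called (0.0811%), of which 3 were higher (0.0187%) and 10 were lower. With the sign of replicate 4 turned, 78 of 16024 were called (0.487%), 25 higher and 53 lower, and 12 of the 13 were among them. A feature is a gene, over all its probes, or a probe without a single gene name. The 13 calls held 9 named genes: Ndrg1, Selenbp1, Fam162a, Ddit4, Bhlhe40, Aldoa and Cdkn1a were lower, and Acrbp and Slc22a18 were higher. The other higher call, a probe without a single gene name, had no value on replicate 1 and rested on replicates 2 and 3. For 13 of the 13, replicate 4 lay on the opposite side of 0 from the estimate made without it, against 52.8% of all features. Of features with replicates 1 to 3 on one side of 0, 2563 of 4577 (56%) had replicate 4 on the other side. Where the mean of replicates 1 to 3 was also at least 0.5 from 0, this held for 119 of 193 (61.7%). When a further array was left out, between 1 and 2 features were called, and of the 9 named genes Ndrg1 alone kept its call each time (limma adjusted p = 0.00105 without replicate 1, 0.00257 without replicate 2 and 0.0138 without replicate 3). A limma fit on the 7 h arrays alone called 0 features, with replicate 4 left out or turned (1817 and 1615 at an unadjusted p under 0.05). Turning every Cy3 array left none of the 13 called. That turning sets replicate 3 against replicates 1 and 2, so it removes such calls by construction and cannot judge them.

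Genes of the hypoxia response made up most of the named genes that fell without replicate 4. Ndrg1, a stress gene induced by low oxygen, read -0.90 and -1.22 in replicates 1 and 2, -1.40 in replicate 3 and 1.0 in replicate 4. Its 3 first values thus lay below 0 and the last one above it by a similar amount. The fitted log2 ratio was -0.63 ± 0.28 (SE) with 4 arrays (limma adjusted p = 0.702), -1.22 ± 0.09 without replicate 4 (limma adjusted p = 0.000191) and -1.13 with replicate 4 turned (limma adjusted p = 0.000108). Fam162a, a mitochondrial protein induced by HIF-1, read -0.61, -0.88, -0.71 and 0.63 on the 4 arrays in order. Its log2 ratio was -0.39 ± 0.19 (SE) with 4 arrays (limma adjusted p = 0.706), -0.77 ± 0.11 without replicate 4 (limma adjusted p = 0.0304) and -0.71 with it turned (limma adjusted p = 0.0083). Ddit4, which restrains the growth kinase complex mTORC1, read -0.44, -0.73, -0.87 and 0.44. In the same order of fits it gave -0.40 ± 0.17, -0.71 ± 0.10 and -0.62 (limma adjusted p = 0.681, 0.0304 and 0.0147). For Bhlhe40, a transcriptional repressor, the arrays gave -0.44, -0.54, -0.65 and 0.50, and the fits gave -0.28 ± 0.15, -0.56 ± 0.09 and -0.54 (limma adjusted p = 0.713, 0.0437 and 0.00893). In these 4 genes replicates 1 to 3 lay below 0 and replicate 4 above it. They were picked by calls made without replicate 4, which need replicates 1 to 3 to agree. Over all features, replicate 4 lay opposite to the estimate made without it in 52.8%.

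Of the 20 genes listed for the hypoxia response outside glycolysis, 16 were measured. Without replicate 4, 14 of the 16 had an estimate below 0 and the median was -0.37, against 51.6% below 0 and a median of 0.00 over all features. With the 4 arrays 12 of 16 lay below 0, none was called and the median was -0.21, and with replicate 4 turned the median was -0.28. On each of replicates 1 to 3, 8 of 16 lay below 0, against 14.9% of all features. Called lower were 4 of the 16 without replicate 4 and 6 with it turned, where lower calls made up 0.0624% and 0.331% of all features. The list's medians on the 4 arrays were -0.01, -0.31, -0.55 and 0.40. Replicate 1 was therefore near 0 as a whole, although Ndrg1 and Fam162a were well below it there. Vegfa, the vascular growth factor, read -0.38, -0.65, -0.84 and 0.67. It passed with replicate 4 turned (limma adjusted p = 0.0136) and missed the threshold without it (limma adjusted p = 0.102). Ero1a, an oxidase of the endoplasmic reticulum, held an even level of -0.51, -0.53 and -0.51 on replicates 1 to 3 and 0.68 on replicate 4. It was not called in any of the 3 fits (limma adjusted p = 0.212 with replicate 4 turned). Higd1a, a mitochondrial protein of the same programme, read -0.25, -0.33, -0.59 and 0.36 and was not called either. Hif1a itself, the oxygen-regulated subunit of HIF-1, read 0.14, 0.20, 0.04 and -0.12. Egln1, the enzyme that marks HIF-1 for destruction, spread from -0.31 to 0.46, and its sign depended on the arrays used (0.04 with 4 arrays, -0.12 without replicate 4). Bnip3l stood apart, with values between -0.11 and 0.15 on replicates 1 to 3 and -1.84 on replicate 4.

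**Figure D1:**
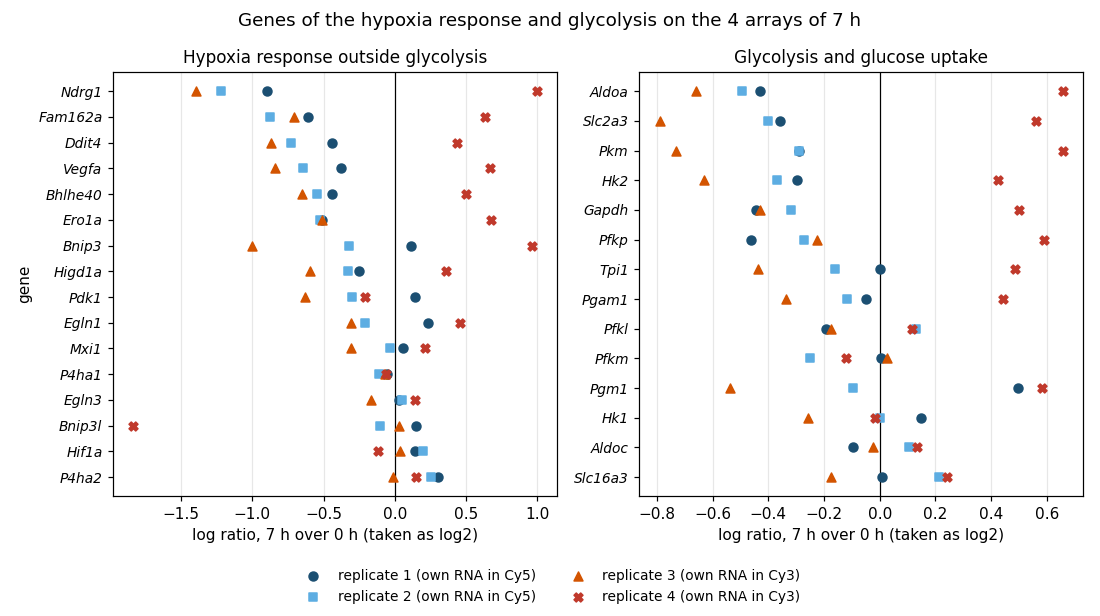
Log ratio of each measured gene of the hypoxia list (left, 16 genes) and the glycolysis list (right, 14 genes) at 7 h over 0 h, one point per array, with genes ordered by the mean of replicates 1 to 3. In the upper rows replicates 1 to 3 lie left of 0 and replicate 4 right of it, as for Ndrg1 at -0.90, -1.22, -1.40 and 1.0.

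The core letters of the hypoxia response element, ACGTG and GCGTG, were searched on both strands, overlaps included, in the 250 bases before each annotated start (RefSeq, GRCm38). They stood in 38.6% of all 32851 promoters, in 14 of 17 promoters of 13 measured hypoxia genes (82.4%) and in 16 of 21 promoters of 13 measured glycolysis genes (76.2%). This motif was chosen with the values known, base composition was not matched, and a match is a description of letters only. Ndrg1 and Bhlhe40 were not matched to the promoter table, so nothing is said of their promoters. Promoters are shown for the members of these lists with the lowest values without replicate 4 among those whose outermost start held a match, to let the matches be seen beside the values of Fam162a, Ddit4, Ero1a and Bnip3. All 4 genes lie on the minus strand, at chr16:36071562-36071811, chr10:59951771-59952020, chr14:45318573-45318822 and chr7:138909507-138909756 in that order. The sequences run 5′ to 3′ towards the start, and capitals mark the matches.
Fam162a: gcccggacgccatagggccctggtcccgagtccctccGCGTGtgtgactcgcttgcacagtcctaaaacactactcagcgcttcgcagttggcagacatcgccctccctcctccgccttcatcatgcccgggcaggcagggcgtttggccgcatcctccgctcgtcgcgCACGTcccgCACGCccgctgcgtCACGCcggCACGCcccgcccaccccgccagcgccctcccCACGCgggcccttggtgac
Ddit4: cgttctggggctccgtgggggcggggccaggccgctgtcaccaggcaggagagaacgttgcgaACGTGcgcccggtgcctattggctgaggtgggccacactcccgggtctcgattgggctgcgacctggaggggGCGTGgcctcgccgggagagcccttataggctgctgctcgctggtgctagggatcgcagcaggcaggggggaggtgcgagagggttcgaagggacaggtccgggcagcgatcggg
Ero1a: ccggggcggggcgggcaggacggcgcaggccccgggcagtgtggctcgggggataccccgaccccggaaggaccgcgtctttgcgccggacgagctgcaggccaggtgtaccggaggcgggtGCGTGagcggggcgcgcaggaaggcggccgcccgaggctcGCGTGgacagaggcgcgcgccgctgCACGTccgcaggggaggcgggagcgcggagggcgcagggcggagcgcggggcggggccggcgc
Bnip3: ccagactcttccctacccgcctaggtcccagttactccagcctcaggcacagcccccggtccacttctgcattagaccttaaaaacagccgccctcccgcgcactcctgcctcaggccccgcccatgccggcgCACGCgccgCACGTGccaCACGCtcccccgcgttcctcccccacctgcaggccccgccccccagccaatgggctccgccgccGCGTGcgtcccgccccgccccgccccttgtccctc
Fam162a held 6 matches, Bnip3 held 5, Ero1a held 3 and Ddit4 held 2.

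Enzymes of glycolysis had the same form. Aldoa, the aldolase of muscle and most other tissues, read -0.43, -0.49, -0.66 and 0.66 on the 4 arrays. Its log2 ratio was -0.23 ± 0.16 (SE) with 4 arrays, -0.55 ± 0.08 without replicate 4 and -0.56 with it turned (limma adjusted p = 0.805, 0.0304 and 0.00469). Slc2a3, a glucose transporter, read -0.36, -0.40, -0.79 and 0.56 and missed the threshold (limma adjusted p = 0.185 without replicate 4). Pkm, pyruvate kinase, read -0.29, -0.29, -0.73 and 0.66. Gapdh, which is often used as a control gene, read -0.44, -0.32, -0.43 and 0.50. Pfkp, the platelet form of phosphofructokinase, read -0.46, -0.27, -0.22 and 0.59. Pkm, Gapdh and Pfkp were called lower only with replicate 4 turned (limma adjusted p = 0.0170, 0.0287 and 0.0342) and not without it (0.129, 0.167 and 0.211). Hk2, which commits glucose to the pathway, read -0.30, -0.37, -0.63 and 0.42 and was not called in any of the 3 fits. Of 14 measured genes, 14 had an estimate below 0 without replicate 4 (51.6% of all features), with a median of -0.22. With all 4 arrays 11 of 14 did, with a median of -0.06, where 50.6% of all features lay below 0. Below 0 on each of replicates 1 to 3 were 7 of 14 (14.9% of all features). The array medians were -0.15, -0.21, -0.38 and 0.46, so that replicate 4 lay further from 0 than any of the others and on the other side. Tpi1, triosephosphate isomerase, and Pgam1, phosphoglycerate mutase, were at -0.25 and -0.20 without replicate 4 and were not called, and the other 6 genes lay between -0.12 for Pgm1 and -0.01 for Slc16a3. With replicate 4 turned the list's median was -0.25.

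Outside these lists, Selenbp1, a selenium-binding methanethiol oxidase, read -0.73, -0.76, -0.86 and 0.72. Its log2 ratio was -0.41 ± 0.20 (SE) with 4 arrays, -0.80 ± 0.11 without replicate 4 and -0.77 with it turned (limma adjusted p = 0.706, 0.0304 and 0.00491). The near-identical Selenbp2 read -0.83, -0.60, -0.83 and 1.26, and the probes of these copies may not tell them apart. Acrbp, a proacrosin-binding protein known from sperm, was one of the higher genes and read 0.67, 0.73, 0.68 and -0.31. Its log2 ratio was 0.44 ± 0.13 (SE) with 4 arrays, 0.68 ± 0.09 without replicate 4 and 0.60 with it turned (limma adjusted p = 0.620, 0.0251 and 0.00973). Slc22a18, a transporter of an imprinted gene cluster, read 1.41, 1.495, 1.91 and -0.16 and had the largest ratio among the named calls, 1.68 ± 0.25 (SE, limma adjusted p = 0.0448) without replicate 4. With 4 arrays it was 1.16 ± 0.32 (limma adjusted p = 0.620). With the sign of replicate 4 turned it was 1.24 and no longer passed (limma adjusted p = 0.115).

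Cdkn1a, the cell cycle inhibitor p21, was the one member of the interleukin-3 and STAT5 list that passed. The arrays gave -0.36, -0.36, -0.63 and 0.34, and the log2 ratio was -0.25 ± 0.12 (SE) with 4 arrays, -0.48 ± 0.07 without replicate 4 and -0.42 with it turned (limma adjusted p = 0.704, 0.0304 and 0.0134). Cish, a feedback inhibitor of STAT5 signalling, read -0.39, -0.25, -0.40 and 0.29. Pim1, a survival kinase and STAT5 target, read -0.28, -0.35, -0.31 and 0.30. Neither was called (limma adjusted p = 0.487 and 0.510 without replicate 4). Over the list, 12 of 14 measured genes had an estimate below 0 without replicate 4 (51.6% of all features), with a median of -0.14, and 11 of 14 with the 4 arrays, with a median of -0.04. With replicate 4 turned the median was -0.16. Below 0 on each of replicates 1 to 3 were 8 of 14 (14.9% of all features). Csf2rb, the shared beta chain of the receptors for interleukin-3 and related cytokines, read -0.20, -0.37, -0.49 and 0.83, and passed with replicate 4 turned (limma adjusted p = 0.0185) but not without it (0.129).

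The list of unfolded protein and amino acid stress genes held members on both sides of 0. Psat1, which makes serine, read -0.36, -0.45, -0.39 and 0.53. Atf4, the transcription factor of the amino acid response, read -0.36, -0.25, -0.43 and 0.42. Both were called lower with replicate 4 turned (limma adjusted p = 0.0203 and 0.0249), and neither without it (0.129 and 0.151). Trib3, a target of Atf4, read -0.40, -0.31, -0.46 and 0.45 and was not called. Hspa5, the main chaperone of the endoplasmic reticulum, lay above 0 on all 4 arrays, at 0.30, 0.27, 0.30 and 0.27. Of the 21 measured genes of this list, 10 had an estimate below 0 without replicate 4, and its median was 0.01. Mthfd2, a mitochondrial enzyme of folate metabolism, read -0.15, -0.45, -0.73 and 0.59, and Eif4ebp1, which restrains translation, -0.31, -0.44, -0.31 and 0.21. Each of these 2 genes was called lower with replicate 4 turned (limma adjusted p = 0.0114 and 0.0287).

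Most genes of neutrophil granules lay below 0 on replicates 1 to 3. Camp, an antimicrobial peptide, read -0.64, -0.49, -0.87 and 0.65. Mmp8, the neutrophil collagenase, read -0.56, -0.60, -0.57 and 0.50. Elane, neutrophil elastase, read -0.45, -0.38, -0.42 and 0.23, and Ltf, lactoferrin, -0.46, -0.34, -0.63 and 0.58. Of 13 measured genes, 13 had an estimate below 0 without replicate 4 (51.6% of all features), with a median of -0.23. On each of replicates 1 to 3, 10 of 13 were below 0 (14.9% of all features). With the 4 arrays 10 of 13 lay below 0 with a median of -0.12, and with replicate 4 turned the median was -0.25. The array medians were -0.26, -0.19, -0.42 and 0.40. None was called with the 4 arrays, without replicate 4 or with it turned. S100a9, a calcium-binding protein abundant in neutrophils, read -0.37, -0.17, -0.52 and 0.58, and Mpo, myeloperoxidase, -0.14, -0.19, -0.39 and 0.05. A second array bears on these genes because the fit takes its spread from all 15 arrays of the time course. At 23 h Mmp8 read -0.95 in replicate 1, 1.19 in replicate 3 and -1.26 in replicate 4, and Camp read -1.04, 1.13 and -1.36. The deposited median of this replicate 3 was 0.233, further from 0 than that of any other array. Without this 23 h replicate 3 and the 7 h replicate 4, 74 of 15983 features were called (0.463%), 44 lower (0.275%) and 30 higher (0.188%), and 3 of the 13 granule genes were among the lower ones. This 23 h array was put in doubt with earlier results known and lies opposite to the other 23 h arrays for these very genes, so that leaving it out removes spread from them and their calls are not independent of that choice. They were Camp at -0.70 ± 0.09, Elane at -0.43 ± 0.06 and Mmp8 at -0.59 ± 0.11 (SE, limma adjusted p = 0.00794, 0.0161 and 0.0470). Of 10 macrophage genes, 6 had an estimate below 0 and 4 above it without replicate 4, 7 and 3 with the 4 arrays, and 4 lay below and 2 above 0 on each of replicates 1 to 3. Lyz2, lysozyme, read -0.38, -0.37, -0.43 and 0.55 and was not called in these fits. Adam8, a membrane protease of myeloid cells, read -0.66, -0.54, -0.74 and 0.77 and passed with replicate 4 turned (limma adjusted p = 0.0312) and with both arrays left out (limma adjusted p = 0.0015).

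**Figure D2:**
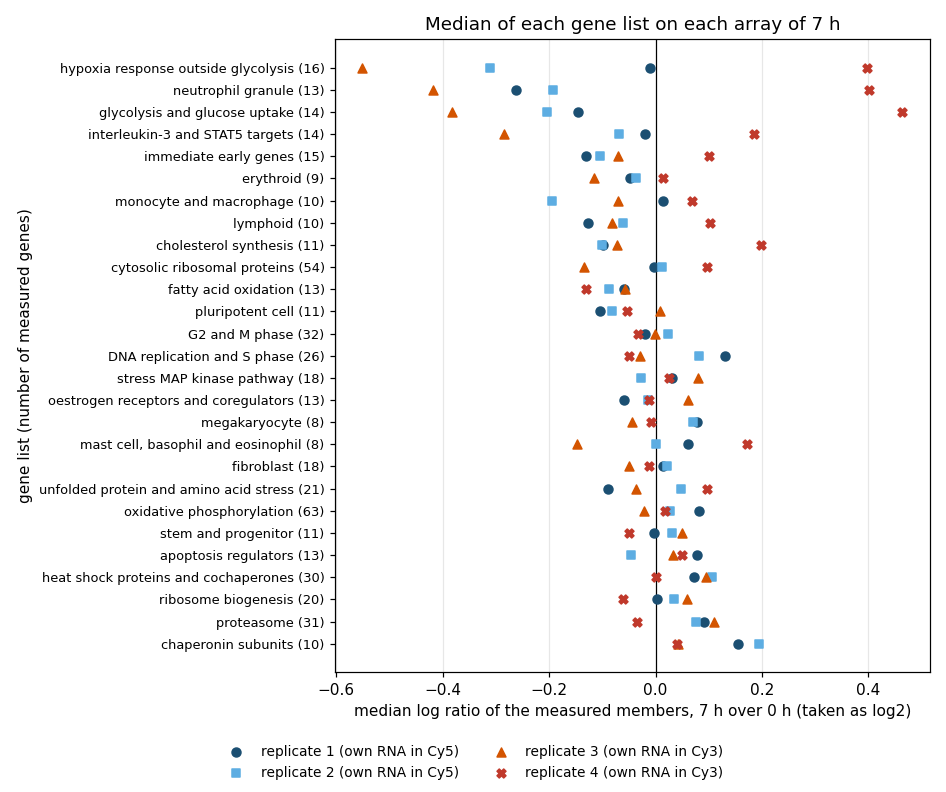
Median log ratio at 7 h over 0 h of the measured members of each of 27 gene lists, one point per array, with the number of measured genes in brackets. Hypoxia, neutrophil granule and glycolysis genes have array medians far apart, with replicate 4 at 0.40, 0.40 and 0.46 and the other arrays below 0.

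Genes that lay on one side of 0 on all 4 arrays as deposited did not reach the threshold. Mapkapk2, a stress kinase downstream of p38, read 0.44, 0.64, 0.30 and 0.44, and its log2 ratio was 0.45 ± 0.09 (SE, limma adjusted p = 0.362). Hba-x, the embryonic zeta globin, read -0.51, -0.43, -0.33 and -0.26, with a ratio of -0.38 ± 0.07 (SE, limma adjusted p = 0.362). Rab8a, a small GTPase of vesicle transport, read -0.45, -0.66, -0.19 and -0.47, with -0.44 ± 0.08 (SE, limma adjusted p = 0.362). Zbtb16, the factor PLZF of stem and progenitor cells, read 0.47, 0.22, 0.44 and 0.15, with 0.32 ± 0.07 (SE, limma adjusted p = 0.362). Turning the sign of replicate 4 took Mapkapk2 to 0.24 and Hba-x to -0.25. Acadvl, which begins the oxidation of long fatty acids, read -0.41, -0.34, -0.48 and -0.77 (limma adjusted p = 0.523), and Gch1, the first enzyme of tetrahydrobiopterin synthesis, -0.40, -0.12, -0.31 and -0.38 (limma adjusted p = 0.523). Further genes on one side on all 4 arrays were Fbxl12, Cldn3, Lin7a, Pnliprp1, Ppp1r16b and Sfrp4 below 0, and Gtf3c6, Naprt, Snx16, Tmbim7, Tmem223, Zdhhc15 and Dync1li1 above it. Pnliprp1, a lipase-related protein of the pancreas, was among 3 features called when replicate 3 was left out (limma adjusted p = 0.0425). With the sign of every Cy3 array turned, the ratio crossed 0 for Acadvl, Gch1, Fbxl12, Cldn3, Lin7a, Ppp1r16b, Sfrp4, Gtf3c6, Tmbim7, Zdhhc15 and Hspa5, and Mapkapk2, Hba-x, Rab8a and Zbtb16 came close to 0, at 0.086, -0.087, -0.113 and 0.025. That turning sets the Cy3 arrays against the Cy5 arrays. It moves genes with one side on all 4 arrays towards 0 by construction and cannot judge them. Rhox13, Septin12 and Usp31 ranked with these genes by p but had one array across 0. Esr1, which encodes the oestrogen receptor alpha, lay between -0.07 and 0.10 on the 4 arrays, with a ratio of 0.05 ± 0.06 (SE, limma adjusted p = 0.879).

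Heat shock and chaperonin genes lay slightly above 0. Of 9 tested chaperonin genes 9 had an estimate above 0 with all 4 arrays, with a median of 0.14, and 6 of 9 were above 0 on each of replicates 1 to 3, against 13.9% of all features. The array medians were 0.155, 0.195, 0.042 and 0.041, so the shift lay mainly on replicates 1 and 2, the Cy5 arrays. Cct3, a subunit of the chaperonin ring that folds actin and tubulin, read 0.25, 0.20, 0.39 and 0.03. Of 30 heat shock proteins and cochaperones, 25 had an estimate above 0 with 4 arrays, with a median of 0.05, against 49.4% of all features, and 7 of 30 were above 0 on each of replicates 1 to 3 (23.3%, against 13.9%). Their median on replicate 4 was 0. Hspa9, the mitochondrial member of the heat shock protein 70 family, read 0.17, 0.23, 0.12 and 0.06, and Bag3, a cochaperone, 0.24, 0.67, 0.23 and -0.20. Hspb1, a small heat shock protein and a substrate of Mapkapk2, read 0.43, 0.35, 0.34 and -0.28. No gene of the 2 lists was called in the fits made here. The heat shock element, written GAANNTTC or TTCNNGAA, was searched in the same way and stood in 12.8% of all promoters, in 13 of 36 promoters of 27 heat shock genes (36.1%) and in 2 of 9 of 7 chaperonin genes (22.2%). The promoter of Hspb1, on the plus strand at chr5:135887669-135887918, is shown because this gene had the highest 7 h value among those with a match, and capitals mark its 2 matches.
Hspb1: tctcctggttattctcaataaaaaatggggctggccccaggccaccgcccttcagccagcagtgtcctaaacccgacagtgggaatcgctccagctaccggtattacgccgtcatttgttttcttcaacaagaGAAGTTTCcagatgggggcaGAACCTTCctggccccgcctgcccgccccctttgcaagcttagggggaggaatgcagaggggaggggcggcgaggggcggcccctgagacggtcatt
Among 18 genes of the stress MAP kinase pathway, 9 lay above 0 and 9 below it. Map2k4, a kinase upstream of p38 and JNK, read 0.37, 0.33, 0.15 and -0.14 and was not called (limma adjusted p = 0.673 with 4 arrays).

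**Figure D3:**
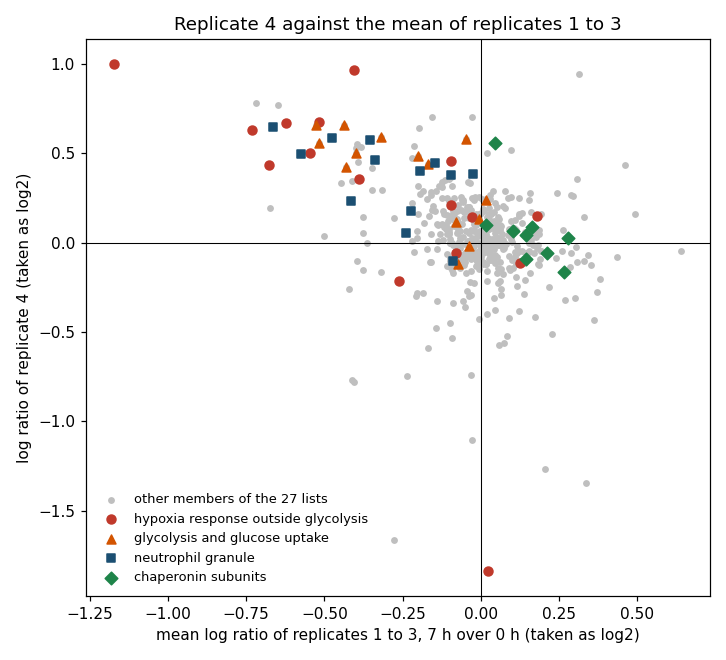
Log ratio of each list member with a value on all 4 arrays in replicate 4 (vertical) against its mean over replicates 1 to 3 (horizontal), with 4 lists coloured. Most hypoxia, glycolysis and granule genes lie in the upper left, such as Ndrg1 with 1.0 in replicate 4, and chaperonin genes lie near 0 in replicate 4.

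The 3 h, 12 h and 23 h arrays share the 0 h reference with the 7 h arrays, so their ratios are set side by side and the difference was tested directly. Ndrg1 averaged -1.15 ± 0.20 (SD, n = 4) at 3 h, -0.43 ± 0.30 (n = 4) at 12 h and -0.04 ± 0.08 (n = 3) at 23 h, and replicates 1 to 3 of 7 h lay in the range of the 3 h arrays or just below it. Selenbp1 averaged -0.95 ± 0.34 at 3 h, -0.20 ± 0.09 at 12 h and 0.02 ± 0.11 at 23 h. Bnip3, a mitochondrial protein of the hypoxia response, averaged -1.38 ± 0.38 at 3 h, with each of its 4 values at or below -1.01, and at 7 h it read 0.12, -0.32, -1.01 and 0.97. Its 7 h ratio was above the 3 h ratio by 0.87 ± 0.15 (SE) without replicate 4 and by 1.32 ± 0.33 with it, and neither passed (limma adjusted p = 0.429 and 0.477). Ndrg1 at 7 h without replicate 4 lay below its 12 h ratio by a log2 difference of -0.79 ± 0.12 (SE), which did not pass either (limma adjusted p = 0.186). Aldoa averaged -0.52 ± 0.09 at 3 h, -0.36 ± 0.21 at 12 h and -0.09 ± 0.14 at 23 h. Hba-x, below 0 at 7 h, averaged 0.16 ± 0.02 at 3 h (n = 3), -0.11 ± 0.17 at 12 h and 0.10 ± 0.13 at 23 h. Its 7 h ratio differed from that at 3 h by -0.54 ± 0.11 (SE, limma adjusted p = 0.414). Mapkapk2 averaged 0.11 ± 0.11 at 3 h, 0.18 ± 0.24 at 12 h and 0.04 ± 0.17 at 23 h, and its difference to the other times was 0.34 ± 0.10 (SE, limma adjusted p = 0.830).

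**Figure D4:**
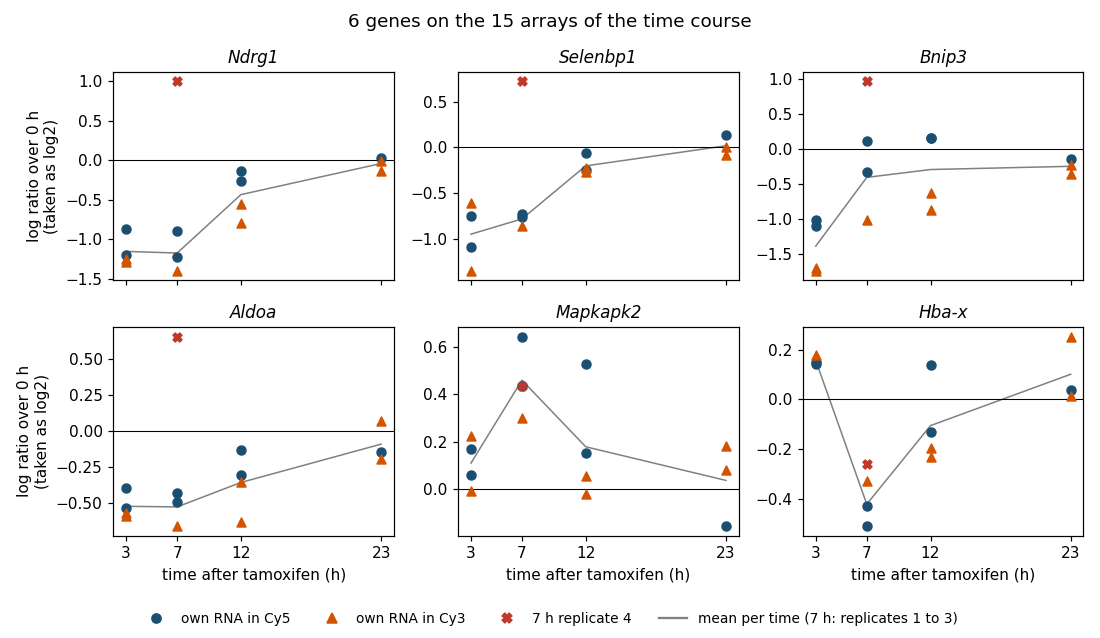
Log ratio over 0 h of 6 genes on the 15 arrays of the time course against the time after tamoxifen, with the mean of each time as a line (at 7 h, of replicates 1 to 3). Ndrg1, Selenbp1 and Aldoa are below 0 at 3 h and at 7 h outside replicate 4 and approach 0 by 23 h, while Mapkapk2 and Hba-x have replicate 4 on the side of the other 7 h arrays.

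The list medians at 3 h, 12 h and 23 h were -0.28, -0.14 and -0.03 for the hypoxia genes, beside -0.37 at 7 h without replicate 4, -0.21 with the 4 arrays and -0.28 with replicate 4 turned. For glycolysis they were -0.34, -0.13 and -0.05, beside -0.22, -0.06 and -0.25 in the same order of fits. For neutrophil granule genes they were -0.12, -0.35 and -0.30, beside -0.23, -0.12 and -0.25. The medians of the other times are of plain array means, and those of 7 h are of fitted ratios. Those of 23 h include its replicate 3, which for Mmp8 and Camp lay opposite to the other 23 h arrays. The granule median at 23 h therefore cannot be ranked safely against that at 7 h. The place of the 7 h median among the other times thus depended on the use of replicate 4 for the hypoxia and glycolysis genes. No feature was called for 7 h versus 3 h, 12 h or the mean of the other times, with the 4 arrays or without replicate 4 (0 of 16024 and 0 of 16035, 0%). With limma, 1537, 721 and 944 features had an unadjusted p under 0.05 with the 4 arrays, and 1325, 768 and 966 without replicate 4. With replicate 4 turned, 1 feature was called in each of these comparisons (0.00624%), the same probe without a gene name each time. The 7 h ratios were therefore not shown to differ from those of the neighbouring times.

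Among other lists, cytosolic ribosomal proteins had 45 of 54 genes with an estimate below 0 without replicate 4 (51.6% of all features), at a median of -0.06. With all 4 arrays 31 of 54 were below 0. The array medians were -0.002, 0.013, -0.135 and 0.098, so without replicate 4 the shift came mainly from replicate 3. Below 0 on each of replicates 1 to 3 were 15 of 54 (27.8%, against 14.9% of all features). Proteasome genes had 26 of 31 above 0 without replicate 4, against 48.4% of all features, and 24 of 31 with all arrays, with medians of 0.08 and 0.06. None of these genes was called. In the immediate early genes 13 of 15 lay below 0 without replicate 4 (51.6% of all features), and 14 of 15 with the 4 arrays (50.6% of all features). They were led by Ier3, a survival gene of the stress response, which read -0.73, -0.71, -0.72 and 0.78. Ier3 was called lower with replicate 4 turned (limma adjusted p = 0.0458) and not without it (limma adjusted p = 0.212). Klf6, a zinc finger factor of the same list, read -0.26, -0.42, -0.44 and 0.14. Tal1, a master factor of blood stem cells and red cells, was the one listed gene called higher with replicate 4 turned. It read 0.36, 0.35, 0.39 and -0.43, with a ratio of 0.35 ± 0.06 (SE) without replicate 4 (limma adjusted p = 0.0754) and 0.38 with it turned (limma adjusted p = 0.0083). Hba-a1, adult alpha globin, read -0.38, -0.24, -0.50 and 0.05 and was not called. Of 9 erythroid genes, Tal1 among them, 6 had an estimate below 0 without replicate 4, at a median of -0.09, and 6 with the 4 arrays. On each of replicates 1 to 3, 5 of the 9 lay below 0 and 1 above it (14.9% and 13.9% of all features). DNA replication genes (13 of 26 above 0), genes of G2 and M phase (14 of 31) and oestrogen receptor coregulators (7 of 13) were evenly divided with the 4 arrays, and lymphoid, fibroblast and pluripotent cell markers had no called member.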

How the data were processed

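RNA of 15 time course arrays, 4 of them at 7 h, was labelled with Cy3 or Cy5 and hybridised against a 0 h reference, per the labels' protocols, which also mention organs and pooled control animals. The authors deposited 1 log ratio per spot, taken here as log2; no source used here gives their scale, direction or normalization. Values further than 10 from 0 were set to missing, each array was centred on its median, and probes with 1 gene symbol were averaged per gene. Of 20205 probes, 13891 had 1 gene symbol, 5 several and 6309 none, and 13855 matched a RefSeq gene; the platform annotation can be old. Column medians at 7 h were -0.007, -0.003, 0.01 and -0.009, and 20088 to 20148 probes had a value.

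Features with at least 3 values per time were tested, or 2 at a time with fewer than 4 arrays in the fit. The lower limit thus held at 23 h, and at 7 h in fits without replicate 4. The test was limma 3.58.1 (R 4.3.3, lmFit and eBayes, group means and a dye term over 15 arrays) with Benjamini-Hochberg adjustment at 0.05. The fit was tested on simulated data. The number of arrays limits the precision. Arrays of one replicate number were no more alike than others of the same dye, so the main fits did not pair them. Genes named are those with the smallest p with 4 arrays, without replicate 4 and against the other times, those called, Esr1 and Mapkapk2; the other named genes, mostly list members, were chosen after their values were seen. The members and lists were chosen with earlier results of these data known. Of 735 list entries, 512 were measured. Alternatives concerned the arrays used, the sign of replicate 4 or of the Cy3 arrays, the dye term, a replicate block, array weights, scaling, centring, extreme values and the filter on missing values.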

Additional observations from a re-analysis of the deposited data

Results flagged for a closer look

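Among the 79 named genes with values on all 4 arrays, 20 had one array far from the other 3, at a gap that chance gives in about 1 of 20 groups, and in 18 of the 20 this array was replicate 4. Replicate 4 was the highest array for Adam8 at 0.77, Elane at 0.23, Ero1a at 0.68, Gapdh at 0.50, Ier3 at 0.78, Lyz2 at 0.55, Mmp8 at 0.49, Pim1 at 0.29, Psat1 at 0.53, Selenbp1 at 0.72, Selenbp2 at 1.26 and Trib3 at 0.45. It was the lowest for Acrbp at -0.31, Bnip3l at -1.84, Cpsf6 at -0.56, Hadh at -1.66, Hspb1 at -0.28 and Tal1 at -0.43. The remaining ones were Esr1, with replicate 1 at -0.066, and Septin12, with replicate 3 at -0.08. Many of these genes were named because replicates 1 to 3 gave them small p-values, so the count does not describe genes at large. Of the 27 list medians, 1 was set apart in this way, that of cholesterol synthesis, at 0.20 in replicate 4 and -0.10, -0.10 and -0.07 on the others. Why replicate 4 lies apart was not tested.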

How the results depend on the processing

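For 7 h versus 0 h the 0 calls became 0 to 13 when one 7 h array was left out (13 without replicate 4, 3 without replicate 3), 78 with replicate 4 turned and 74 without 7 h replicate 4 and 23 h replicate 3; the other settings gave 0. Against 3 h these were 0 to 1, 1 and 1. Against 12 h they were 0 to 8 (8 without 12 h replicate 2, 4 without 12 h replicate 4), 1 and 1, with 1 call when the Cy3 arrays were turned and 2 with at least 2 values per group. Against the other times they were 0 to 2, 1 and 1. Without replicate 4, the 13 calls became 1 to 2 with a further 7 h array left out, 5 with the Cy3 arrays turned (none of the 13 among them), 74 without 23 h replicate 3, 4 with all 19 arrays, 0 with only the 7 h arrays (limma, 1817 at an unadjusted p under 0.05), 7 without the dye term, 23 with array weights, 2 with arrays scaled to one spread and 7 without centring. With replicate 4 turned, the 78 calls became 3 to 14, 9 with the Cy3 arrays turned (none of the 78 among them), 38 with all 19 arrays, 0 with only the 7 h arrays (limma, 1615 features at an unadjusted p under 0.05), 131 when arrays were weighted, 47 with scaling, and 50 without centring, where 25 were higher and 25 lower instead of 25 and 53. Turning the Cy3 arrays sets them against the Cy5 arrays, so calls that rest on both dyes lying on one side are lost by construction. With the replicate block the calls were 0, 4 and 49 with the 4 arrays, without replicate 4 and with it turned. After group means and dye were removed, arrays of one number correlated at -0.192 to 0 (median -0.125). Arrays of another number and the same dye did so at -0.244 to 0.071 (median -0.101). Removing group means itself pushes such values below 0, so only their comparison counts. Arrays of one number were thus no more alike than the others.

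Of the 79 named genes, 18 changed sign with the Cy3 arrays turned: Acadvl 0.13, Bnip3l 0.46, Cldn3 0.08, Ddit3 0.27, Egln1 -0.032, Esr1 -0.042, Fbxl12 0.088, Gch1 0.044, Gtf3c6 -0.10, Hadh 0.35, Hspa5 -0.001, Lin7a 0.053, Mpo 0.002, Pdk1 0.17, Ppp1r16b 0.013, Sfrp4 0.08, Tmbim7 -0.014 and Zdhhc15 -0.20. With replicate 4 turned, 4 did: Bnip3l 0.48, Egln1 -0.19, Gtf3c6 -0.014 and Hadh 0.21. Without both arrays Egln1 was -0.13. Turning the Cy3 arrays moves genes with one side on all 7 h arrays towards 0 by construction, so their sign changes there do not measure stability. Leaving out one 7 h array changed the sign of Bnip3 (-0.52 to 0.20), Csf2rb (-0.38 to 0.11), Egln1 (-0.12 to 0.17), Mthfd2 (-0.48 to 0.004), Pfkp (-0.31 to 0.008), Pgam1 (-0.20 to 0.089), Pkm (-0.46 to 0.053), S100a9 (-0.35 to 0.056) and Tpi1 (-0.25 to 0.090). The other settings changed no sign. The alternatives were chosen with earlier results known, except that recomputing them without and with a turned replicate 4 was added after the files were seen, and the cause of these shifts was not tested.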
